A study of Danio rerio with 12 samples.

Results

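Translation initiation factors and aminoacyl tRNA synthetases were followed in whole zebrafish embryos in which pbx2 and pbx4 had been targeted with morpholinos. A gene belonged to the set when its symbol began with eif and a digit, or was the letter code of a tRNA synthetase followed by ars, with or without an ending such as 1, 2, a or b. Only probe sets annotated to a single symbol were used, and the brightest probe set on average over the 12 arrays stood for its gene. The set held 71 of 8793 named genes, 51 initiation factor genes and 20 synthetase genes, and these had 93 probe sets before 1 was kept per gene. Morphant embryos had received morpholinos (antisense oligomers that interfere with translation or splicing) to pbx2 and to pbx4. Control embryos had received a control morpholino that the labels call a pbx2 mutant. All were injected at the 1 to 2 cell stage and collected at 10 or 18 somites, and each of the 4 groups (morphants and controls at each stage) had 3 Affymetrix arrays, 12 in all. Strain, and whether the numbered replicates came from separate clutches, are not given in the sources used here, so the spread behind each p-value may be partly or wholly technical.

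Initiation brings the small ribosomal subunit, the initiator tRNA and an mRNA together at a start codon. eIF2 carries the initiator tRNA and eIF2B recharges it with GTP, eIF3 is the scaffold on the small subunit, the eIF4 proteins bind the cap and unwind the 5′ end, and eIF5, eIF5B and eIF6 govern start codon commitment and subunit joining. Each synthetase joins an amino acid to its own tRNAs, and in mammals many synthetase genes are induced with amino acid transporters by the factor ATF4 when eIF2 alpha is phosphorylated.

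Signals are log2 values per probe set, and a fold change is morphant minus control within a stage, with the standard error of the model after ±. A gene was called at an adjusted p under 0.05 in limma, with Benjamini-Hochberg adjustment over 15502 probe sets. The 12 array medians lay between 7.289 and 7.313 at 10 somites and between 6.518 and 6.569 at 18 somites, and arrays of a group correlated between 0.995 and 0.998. With so few arrays precision was limited, and the standard error of a pbx effect was between 0.059 and 0.152 over the members. The targeted transcripts themselves stood higher in morphants, pbx2 by 1.75 at 10 somites and 1.63 at 18 somites (adjusted p = 1e-06 at both stages) and pbx4 by 0.45 and 0.34 (adjusted p = 0.00606 and 0.0192). Tag control probe sets, for sequences that embryos do not carry, gave a range of background signal, and 18 of 24 measured tissue markers lay above it in all 4 groups. In these bulk samples fewer cells of a type and less RNA per cell cannot be told apart.

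Members were called in morphants about as often as all genes. Calls were all higher at 10 somites and mostly lower at 18 somites, a split that rests on few genes. At 10 somites 6 of the 71 members rose (8.45%), against a background of 4.98% of all genes, and 0 fell, against 4.53%. At 18 somites 4 rose (5.63%), against 8.28% of all genes, and 7 fell (9.86%), against 6.48%. The fold changes of called members lay between -0.38 and 0.40 on the log2 scale. Both stages called eif5a and cars2, 15 members were called at either stage and 56 at neither. At 10 somites the 3 morphant arrays lay above all 3 control arrays for 20 members (17.2% of all genes did so) and below them for 4 (14.4%). At 18 somites the morphant arrays lay above for 7 members (17.4%) and below for 19 (14.4%). The median effect over the members was 0.03 at 10 somites and -0.08 at 18 somites, beside -0.0023 and 0.0027 over all genes. Among p53 and morpholino response genes, 4 of 6 measured rose at 10 somites (casp8 by 0.77, phlda3 by 0.58, mdm2 by 0.40 and ccng1 by 0.37) and 0 rose at 18 somites, where gadd45aa fell by 0.45. Their part in the members' changes was not tested.

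The counts rested on few arrays. At 10 somites the 5 initiation factor calls numbered between 1 and 3 without each array of that stage in turn and 8 with the replicate number as a block, and the 1 synthetase call was lost without control array 1 or morphant array 2 and became 2 without morphant array 3 of 18 somites. At 18 somites the 8 initiation factor calls numbered 5 without control array 1 or morphant array 1 and 4 without control array 2, and the 3 synthetase calls numbered 1 without control array 1 or morphant array 3. Arrays of the same number deviated together, and without the 4 arrays numbered 1 the set held 0 calls at 10 somites and 1 initiation factor and 1 synthetase call at 18 somites, both lower in morphants. In a fit of each stage alone the calls of eif5b (adjusted p = 0.0929), eif3eb (0.111), eif4e3 (0.0741), eif5a (0.0826) and aars1 (0.0590) at 18 somites and of eif5a at 10 somites (0.0543) were lost, while eif3eb at 10 somites was called (0.0295). With the replicate number as a block the 71 members had 9 calls in place of 6 at 10 somites. Of these 8 were higher and 1 lower, against 7.70% and 7.12% of all genes with that block. At 18 somites the members had 14 calls in place of 11, 6 higher and 8 lower, against 11.6% and 9.17%.

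**Figure D1:**
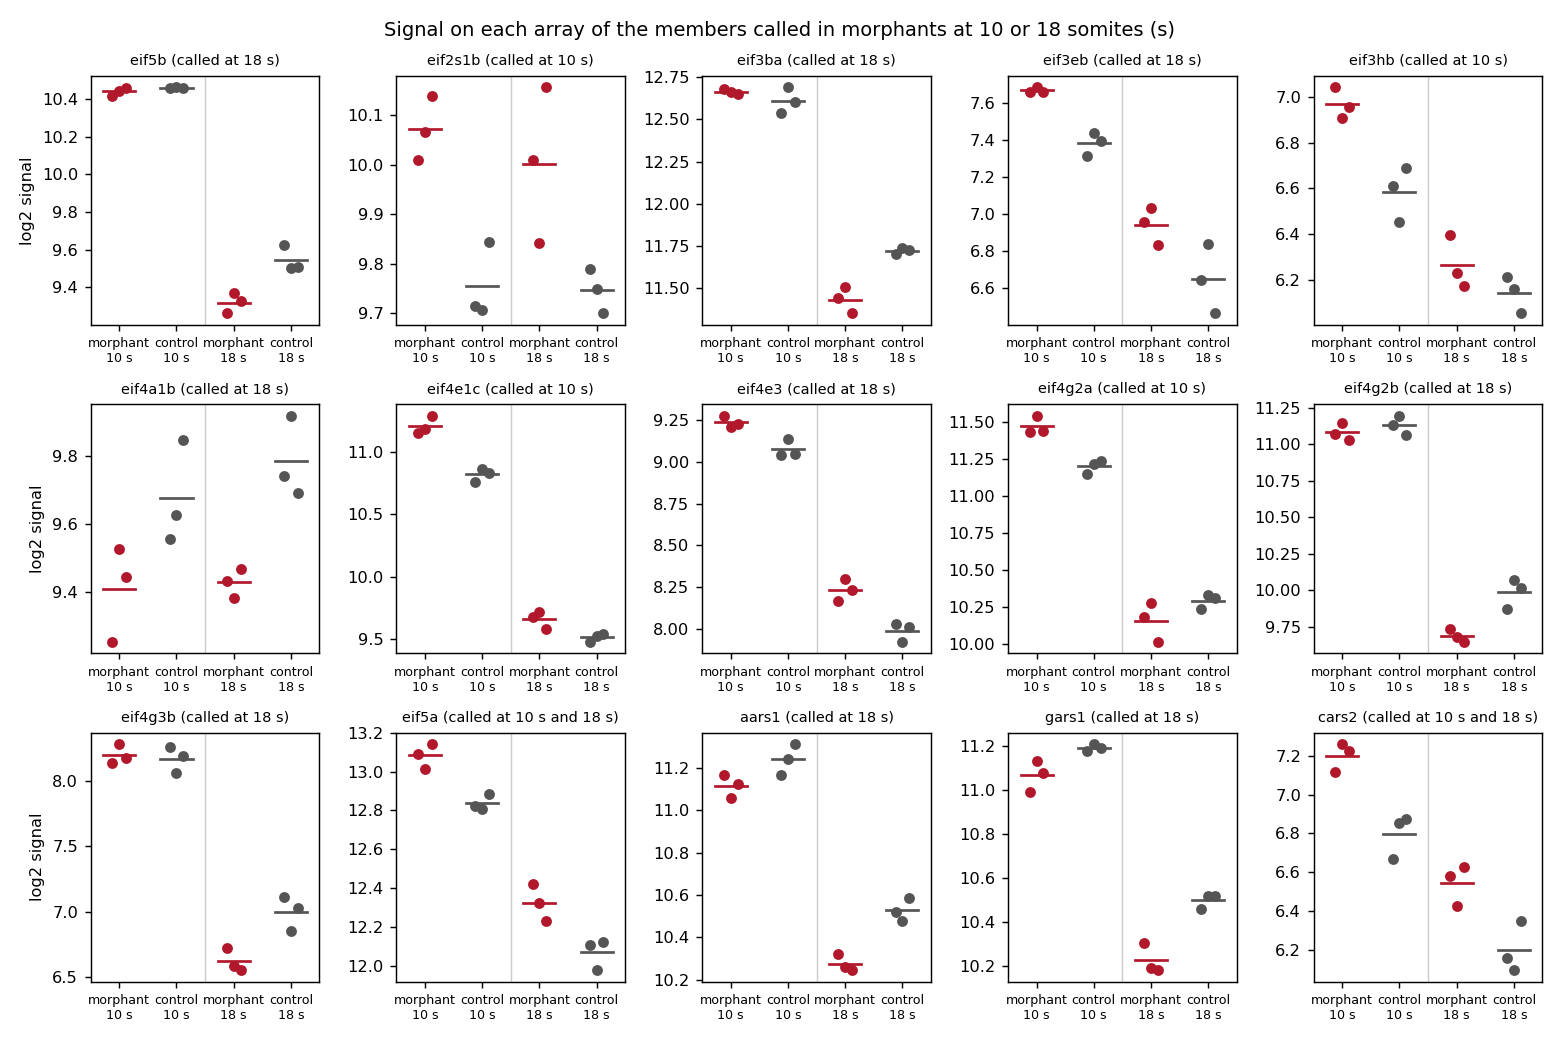
Log2 signal (vertical axes, each with its own range) of the 15 members called at either stage, on morphant (red) and control (grey) arrays at 10 and 18 somites. Each point is 1 array, 3 per group, and bars are group means; cars2 and eif5a lie higher in morphants at both stages, while eif3ba, eif4g2b and eif4g3b separate at 18 somites.

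Of 5 factors of scanning, start codon choice and subunit joining, 0 were called at 10 somites. At 18 somites 1 was called lower, against 6.48% of all genes. The median effect was -0.02 at 10 somites and -0.16 at 18 somites, where 4 of the 5 were negative. Without morphant array 3 of 18 somites the median at that stage was -0.041. In limma 1 of the 5 had an unadjusted p under 0.05 at 10 somites and 2 at 18 somites, beside 24.9% and 29.5% of all genes. The member that fell was eif5b, the GTPase that joins the large subunit. Its signal at 18 somites was 9.26, 9.37 and 9.33 on the morphant arrays and 9.63, 9.50 and 9.51 on the control arrays. All 3 morphant arrays lay below all control arrays, and the fold change was -0.23 ± 0.06 (adjusted p = 0.0265). The call was lost without control array 1 (adjusted p = 0.116) or morphant array 1 (0.0869), and a second eif5b probe set gave -0.15 (adjusted p = 0.135). The anti-association factor eif6, which keeps large subunits apart from small ones, lay above the controls on every array at both stages without being called. Its fold changes were 0.22 at 10 somites and 0.18 at 18 somites (adjusted p = 0.0832 and 0.123). With the replicate number as a block eif6 was called at 10 somites (adjusted p = 0.0452).

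The 10 genes grouped by symbol with eIF2 and eIF2B include eif2a and eif2d, which encode other factors. Of the 10, 1 rose at 10 somites (4.98% of all genes did) and 0 were called at 18 somites. At 18 somites 3 had an unadjusted p under 0.05 in limma, beside 29.5% of all genes. The gene that rose was eif2s1b, which encodes an alpha subunit of eIF2, the subunit that stress kinases phosphorylate. At 10 somites its signal was 10.01, 10.07 and 10.14 on the morphant arrays and 9.72, 9.71 and 9.84 on the control arrays. The arrays did not overlap, and the fold change was 0.32 ± 0.08 (adjusted p = 0.0267). Leaving out control array 1 or 2, or morphant array 2 or 3, ended the call (adjusted p between 0.0756 and 0.111). At 18 somites the arrays again did not overlap, with a fold change of 0.26 (adjusted p = 0.0524, or 0.034 with the replicate number as a block). The other alpha subunit gene, eif2s1a, had fold changes of -0.0020 and -0.18, and the beta subunit gene eif2s2 had 0.02 and -0.02, none of them called. The only eIF2 alpha kinase measured, eif2ak3 (the kinase PERK of the endoplasmic reticulum stress response), had -0.15 at 10 somites and -0.18 at 18 somites, with arrays that overlapped at both stages. All 3 eif2ak3 probe sets gave negative values at both stages and none was called. For eif2b3, which encodes a subunit of eIF2B, the morphant arrays lay above the controls at 10 somites (fold change 0.20) and below them at 18 somites (-0.08). The difference of -0.29 between these effects was not called (adjusted p = 0.431). eif2b3 was picked out here after its values were seen.

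Among 14 subunits of eIF3, 13 had a positive fold change at 10 somites and 7 at 18 somites, beside 4336 and 4452 of all 8793 genes. The genes of an array share its deviations, so these signs are not independent. The medians were 0.05 (0.076 without control array 1) and -0.0045, and few subunits were called. At 10 somites 1 rose (4.98% of all genes did), and at 18 somites 1 rose (8.28%) and 1 fell (6.48%). The gene that rose at 10 somites was eif3hb, with 7.04, 6.91 and 6.96 on the morphant arrays and 6.61, 6.45 and 6.69 on the control arrays. No arrays overlapped, and the fold change was 0.38 ± 0.08 (adjusted p = 0.0104). The call was lost without control array 2 (adjusted p = 0.0555), and the control mean of eif3hb at that stage lay inside the tag control range, which reached 6.68. At 18 somites eif3ba, a subunit of the eIF3 core, had 11.44, 11.51 and 11.35 on the morphant arrays and 11.71, 11.74 and 11.73 on the control arrays. The morphant arrays of eif3ba were all lower, with a fold change of -0.29 ± 0.06 (adjusted p = 0.00984), and this call held without each array in turn. At 10 somites eif3ba had a fold change of 0.05 (adjusted p = 0.699).

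The remaining called subunit, eif3eb, had signals at 18 somites of 6.96, 7.03 and 6.83 on the morphant arrays and 6.65, 6.84 and 6.46 on the control arrays. Control array 2 lay just above morphant array 3, so the groups overlapped, and the fold change was 0.29 ± 0.09 (adjusted p = 0.0418). Median centring or quantile normalization ended the call (adjusted p = 0.0702 and 0.0654). So did leaving out control array 1 or 3 or morphant array 1 or 2 at 18 somites (adjusted p between 0.0993 and 0.166). It also ended without control array 2 or any morphant array at 10 somites, which enter only through the shared spread (0.0541 to 0.0565). At 10 somites the eif3eb fold change was 0.29 (adjusted p = 0.0611, or 0.0137 with the replicate number as a block). Of the other subunits, eif3ea, the copy of eif3eb, and eif3s10, the subunit known as eIF3a in mammals, had fold changes between 0.06 and 0.08 at both stages and were not called.

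Of the 16 genes of the eIF4 complex and its partners, 2 rose at 10 somites (4.98% of all genes did). At 18 somites 1 rose and 3 fell, against 8.28% and 6.48% of all genes. The median effect was -0.0050 at 10 somites, with the sign turned without control array 1 (0.027), and -0.11 at 18 somites. The cap binding gene eif4e1c, a paralog of eif4e, had at 10 somites 11.15, 11.18 and 11.29 on the morphant arrays and 10.76, 10.86 and 10.83 on the control arrays. It rose by 0.39 ± 0.07 (adjusted p = 0.00237), and the call held without each array in turn. At 18 somites eif4e1c was again higher on every morphant array, with a fold change of 0.14 (adjusted p = 0.193). A second eif4e1c probe set of similar signal was not called at either stage. It gave 0.19 at 10 somites and 0.11 at 18 somites (adjusted p = 0.0941 and 0.348). Another cap binding paralog, eif4e3, had at 18 somites 8.17, 8.30 and 8.23 on the morphant arrays and 8.03, 7.92 and 8.01 on the control arrays. It rose by 0.24 ± 0.06 (adjusted p = 0.0225), a call lost without control array 2 (0.089) or morphant array 2 (0.0786) or with the mean of its probe sets (0.0514). The main cap binding gene eif4ea had -0.14 and -0.13, with every morphant array below the controls at both stages and no call (adjusted p = 0.217 and 0.213).

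The eIF4G proteins are scaffolds, and eif4g2 encodes a form that lacks the binding site for eIF4E. At 10 somites eif4g2a had 11.43, 11.54 and 11.44 on the morphant arrays and 11.14, 11.22 and 11.23 on the control arrays. The groups did not overlap, and the fold change was 0.27 ± 0.07 (adjusted p = 0.0366). Its second, dimmer probe set gave -0.31 at 10 somites (adjusted p = 0.162) and fell by 0.69 at 18 somites (adjusted p = 0.00297), so the mean of both gave -0.018 at 10 somites (adjusted p = 0.947). The call of eif4g2a was also lost with median centring (0.0526) and without each array of the stage in turn (0.0545 to 0.143). At 18 somites eif4g2b had 9.73, 9.68 and 9.64 on the morphant arrays and 9.87, 10.07 and 10.02 on the control arrays. It fell by 0.30 ± 0.07 with no overlap (adjusted p = 0.0123), a call lost without control array 2 (0.0539). The scaffold gene eif4g3b had at 18 somites 6.72, 6.59 and 6.55 on the morphant arrays and 7.11, 6.85 and 7.03 on the control arrays. It fell by 0.38 ± 0.08 (adjusted p = 0.00931), and the call held without each array in turn. This was the lowest fold change of any member at that stage on the probe sets used. At 10 somites eif4g3b had a fold change of 0.03. Its copy eif4g3a had at 18 somites 6.78, 6.94 and 6.92 on the morphant arrays and 6.51, 6.66 and 6.68 on the control arrays, with no overlap. The fold change of eif4g3a was 0.27 and was not called (adjusted p = 0.0713), but with the replicate number as a block it was (0.0113). Dimmer eif4g3a probe sets gave 0.08 and 0.16 at 18 somites and were not called in limma (adjusted p = 0.589 and 0.234).

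Of the helicase genes, eif4a1b fell at 18 somites, with 9.43, 9.38 and 9.47 on the morphant arrays and 9.74, 9.92 and 9.69 on the control arrays. The groups did not overlap, and the fold change was -0.36 ± 0.09 (adjusted p = 0.0217). The call was lost without control array 2 (0.0912) or morphant array 1 (0.0531) or 2 (0.0686). At 10 somites the morphant arrays were also all below the controls, with a fold change of -0.27 (adjusted p = 0.0941, or 0.0459 with the replicate number as a block). Its copy eif4a1a had 0.03 at 10 somites and -0.31 at 18 somites (adjusted p = 0.0532, or 0.0108 with the block). The helicase gene eif4a2 and eif4a3, whose product sits in the exon junction complex, had fold changes between -0.13 and -0.04 and were not called. None of the 3 measured eIF4E binding proteins, repressors that take eIF4E away from the scaffold, was called by limma at either stage. At both stages 0 of them had an unadjusted p under 0.05, beside 24.9% of all genes at 10 somites and 29.5% at 18 somites. Their fold changes lay between -0.14 and 0.11.

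The eIF5A pair encodes a hypusine-containing factor that acts on stalled elongating ribosomes, and eif5a was called at both stages. At 10 somites eif5a had 13.09, 13.02 and 13.14 on the morphant arrays and 12.82, 12.81 and 12.89 on the control arrays. At 18 somites it had 12.42, 12.32 and 12.23 on the morphant arrays and 12.11, 11.98 and 12.12 on the control arrays. The groups did not overlap at either stage, and eif5a rose by 0.24 ± 0.07 at 10 somites (adjusted p = 0.0484) and 0.26 ± 0.07 at 18 somites (adjusted p = 0.029). These calls lay near the threshold. The first was lost with median centring (0.0539), with the mean of both probe sets (0.0552), without each array of the stage in turn (0.0583 to 0.174) and without control array 1 or 3 or morphant array 2 at 18 somites (0.0557 to 0.0621). The second was lost without control or morphant array 1 or 2 (0.0575 to 0.113). A second eif5a probe set gave 0.15 at 10 somites and -0.23 at 18 somites (adjusted p = 0.27 and 0.0616), and the mean of both gave 0.01 at 18 somites (adjusted p = 0.931). The paralog eif5a2 had -0.02 and -0.12 and was not called.

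**Figure D2:**
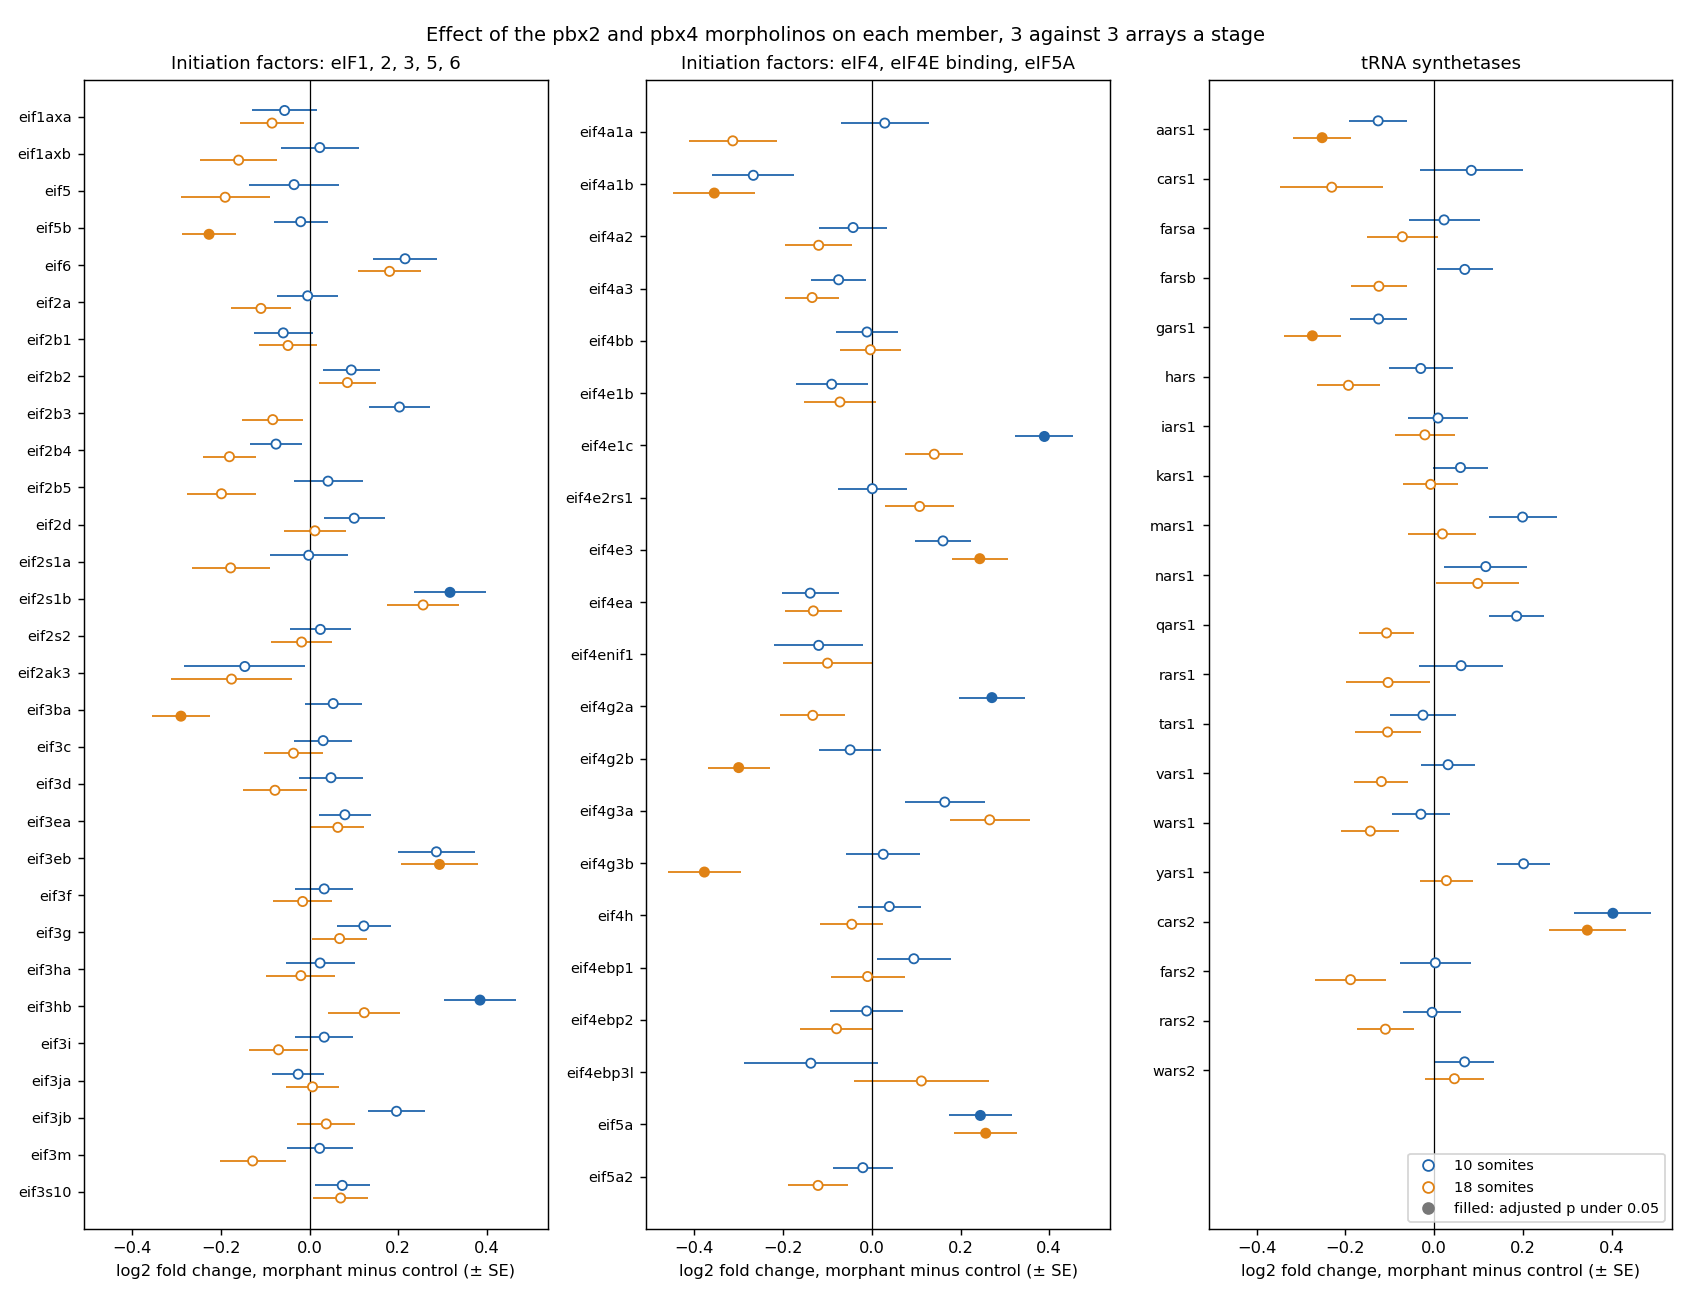
Log2 fold change, morphant minus control (horizontal axes), of each of the 71 members at 10 somites (blue) and 18 somites (orange), with bars of 1 standard error and 3 against 3 arrays a stage. Filled points have an adjusted p under 0.05: 6 at 10 somites, all above 0, and 11 at 18 somites, of which 7 lie below 0.

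Synthetases were taken as mitochondrial when the symbol ends in 2 and otherwise as cytosolic. Whether a product also serves the other compartment was not checked. The 16 cytosolic synthetases moved little at 10 somites, and 2 fell at 18 somites (6.48% of all genes did). At 10 somites, on the probe sets used, 0 were called by limma and 3 had an unadjusted p under 0.05, beside 24.9% of all genes. Fold changes at that stage lay between -0.13 and 0.20, and the 95% intervals together spanned -0.27 to 0.36. The highest values at that stage belonged to yars1, mars1 and qars1, which charge tyrosine, methionine and glutamine. For yars1 the morphant arrays had 10.14, 10.14 and 10.05 and the control arrays 9.91, 9.89 and 9.91, a fold change of 0.20 that just missed the threshold (adjusted p = 0.0523). A second yars1 probe set of similar signal was called at 0.31 (adjusted p = 0.0484). A dimmer one had 0.20 (adjusted p = 0.0997), while at 18 somites yars1 had 0.03 on the probe set used. For qars1 all 3 probe sets gave between 0.17 and 0.20 at 10 somites and between -0.25 and -0.11 at 18 somites, none of them called.

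At 18 somites the glycine enzyme gene gars1 had 10.30, 10.19 and 10.18 on the morphant arrays and 10.46, 10.52 and 10.52 on the control arrays. It fell by 0.27 ± 0.06 with no overlap (adjusted p = 0.0121), and the call held without each array in turn. The alanine enzyme gene aars1 had 10.32, 10.26 and 10.24 on the morphant arrays and 10.52, 10.48 and 10.59 on the control arrays. It fell by 0.25 ± 0.07, also with no overlap (adjusted p = 0.0209), a call lost without control array 1 or 3 or morphant array 2 or 3 (0.0562 to 0.0763). Both genes had fold changes of -0.13 at 10 somites (adjusted p = 0.273 for aars1 and 0.266 for gars1). The morphant arrays lay below the controls for 6 of the 16 at 18 somites (14.4% of all genes did so) and above them for 0 (17.4%). At 10 somites they lay above for 4 (17.2% of all genes) and below for 1 (14.4%). The enzymes for asparagine, methionine and tyrosine (nars1, mars1 and yars1) were the cytosolic members with a positive fold change at 18 somites, between 0.02 and 0.10. The other cytosolic synthetases that were not called were cars1, farsa, farsb, hars, iars1, kars1, rars1, tars1, vars1 and wars1. Their fold changes lay between -0.03 and 0.08 at 10 somites and between -0.23 and -0.0080 at 18 somites.

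Of the 4 mitochondrial synthetases, cars2, the cysteine enzyme, was called at both stages. At 10 somites cars2 had 7.12, 7.26 and 7.23 on the morphant arrays and 6.67, 6.85 and 6.88 on the control arrays, and at 18 somites 6.58, 6.42 and 6.63 on the morphant arrays and 6.15, 6.09 and 6.35 on the control arrays. Every morphant array lay above every control array of its stage. The fold change of cars2 was 0.40 ± 0.09 at 10 somites (adjusted p = 0.0114), the highest of any member, and 0.35 ± 0.09 at 18 somites (adjusted p = 0.0185). The first call was lost without control array 1 (0.0529) or morphant array 2 (0.051), and the second without control array 1 or 2 or morphant array 1 or 3 (0.0569 to 0.076). Both calls were kept in the fit with the replicate number as a block. fars2, rars2 and wars2 had fold changes between -0.0047 and 0.07 at 10 somites and between -0.19 and 0.05 at 18 somites, none of them called.

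Across the set the effect at 18 somites was below the effect at 10 somites for 59 of 71 members, although no single member was called for that difference. In limma 0 members passed the threshold for the difference between the stage effects, against 0.0455% of all genes, and 12 members had an unadjusted p under 0.05 (16.9%, beside 9.31% of all genes). The median difference, 18 somites minus 10 somites, was -0.09 over the members and 0.0077 over all genes, of which 47.7% were negative. All 20 synthetases were negative, with a median of -0.14, and 39 of the 51 initiation factors were, with a median of -0.07. The lowest differences belonged to eif4g2a (-0.40), eif4g3b (-0.40), eif3ba (-0.34), eif4a1a (-0.34) and cars1 (-0.31), with adjusted p between 0.258 and 0.675. These 5 were picked out after their values were seen. Without each array in turn the count of negative members lay between 56 and 61 and that of synthetases between 18 and 20, and without the 4 arrays numbered 1 the counts were 58 and 19. The count of members was 65 with median centring, where 53.2% of all genes were negative, and 58 with quantile normalization (49.8% of all genes). The members of an array share its deviations, so the 71 signs are not independent and no p is given for their count.

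**Figure D3:**
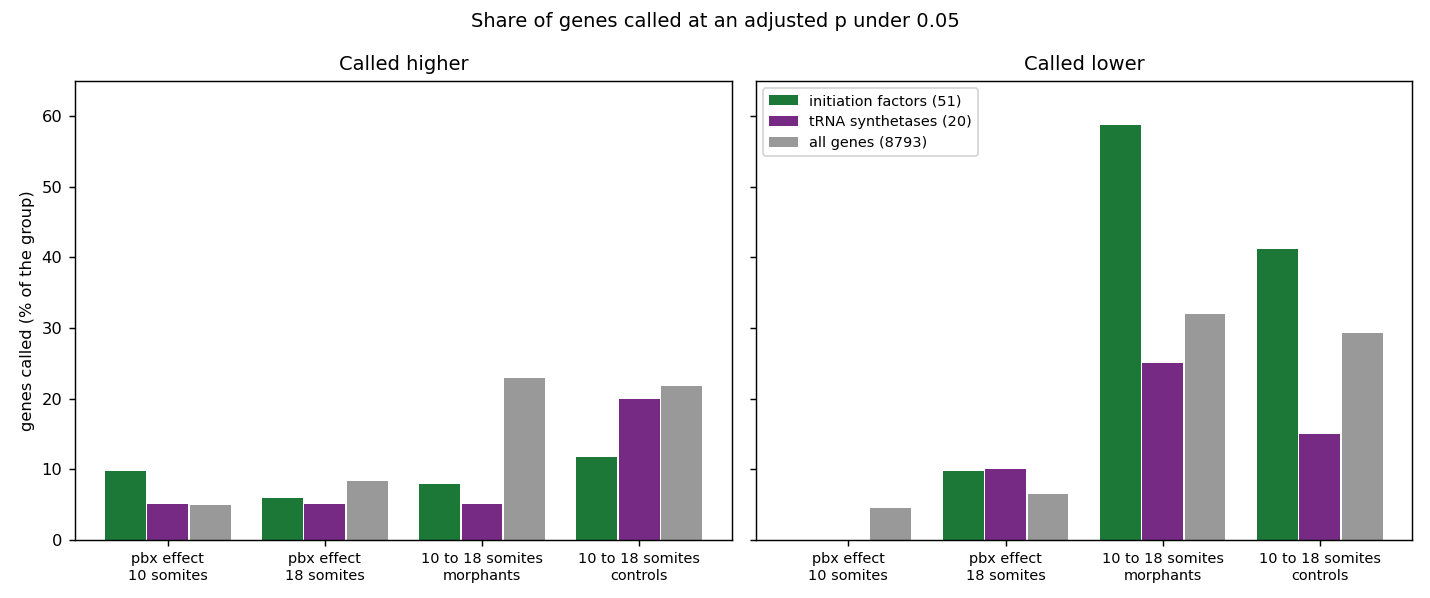
Share of genes called higher (left) and lower (right), in % of each group, for the pbx effect at 10 and 18 somites and the change between the stages in morphants and controls; bars are initiation factors (green), tRNA synthetases (purple) and all genes (grey). In the pbx effect at 18 somites 9.80% of initiation factors and 10.0% of synthetases were called lower, beside 6.48% of all genes.

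Between 10 and 18 somites most genes of the eIF4 complex fell in morphants and in controls. Over the whole set, the balance in controls and the share that fell in morphants depended on the scaling. Stage changes are 18 somites minus 10 somites after each array was centred on its median, since on the deposited scale the median change of all genes was -0.80 in morphants and -0.81 in controls. In morphants 5 members rose (7.04%), against 22.9% of all genes, and 35 fell (49.3%), against 32.0%. In controls 10 rose (14.1%), against 21.8% of all genes, and 24 fell (33.8%), against 29.3%. Quantile normalization in place of centring gave 8 higher (11.27%) and 19 lower (26.76%) in morphants, against 22.77% and 25.03% of all genes. In controls it gave 18 higher (25.35%) and 12 lower (16.90%), against 20.50% and 23.15%, so the balance turned in controls. Of the 16 eIF4 genes, 14 fell in morphants and 12 in controls and eif4a1b rose in both, with medians of -0.44 and -0.37, and 10 fell in each under quantile normalization, with medians of -0.32 and -0.23. The median of the 20 synthetases was -0.09 in morphants (0.03 under quantile normalization) and 0.06 in controls (0.15). Synthetases were called higher in 1 case and lower in 5 in morphants (2 and 3 under quantile normalization) and higher in 4 and lower in 3 in controls (8 and 0). The 7 control calls numbered 3 without control array 2 or 3 of 10 somites, 4 without control array 1 of 18 somites and 2 without control array 3 of 18 somites. Being called in morphants and not in controls, as 11 members were for a fall, is not a test of a difference, and the test of that difference is the same as the difference between the stage effects, with 0 calls.

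Members called under both scalings in morphants and in controls were eif2s1b, eif4a1b, eif2ak3, eif4ebp2 and iars1 on the higher side, and eif5, eif3g, eif4a3, eif4bb, eif4e1b, eif4e1c, eif4ea, eif4enif1, eif4g2b and eif4g3b on the lower side. In controls the eif2ak3 call was lost without array 1 of 10 somites (adjusted p = 0.0907) or array 3 of 18 somites (0.0897), and without the 4 arrays numbered 1 those of eif4ebp2 (0.100) and iars1 (0.0894) were lost. The highest changes were those of eif4a1b, which rose by 0.77 ± 0.09 in morphants (adjusted p = 2e-05) and 0.88 ± 0.09 in controls (7.4e-06). On the deposited scale eif4a1b had 9.43, 9.38 and 9.47 in morphants at 18 somites and 9.25, 9.53 and 9.44 at 10 somites, beside 9.74, 9.92 and 9.69 in controls at 18 somites and 9.55, 9.63 and 9.85 at 10 somites. These signals overlapped between the stages while the median of all genes stood lower at 18 somites. eif2s1b rose by 0.68 ± 0.08 in morphants (1.1e-05) and 0.76 ± 0.08 in controls (4.8e-06). eif2b3 rose by 0.43 ± 0.07 in controls (adjusted p = 0.000181), and had 0.12 in morphants (0.137). The lowest control changes were those of the cap binding genes. The paralog eif4e1b, known from vertebrate oocytes, fell by 0.56 ± 0.08 in morphants and in controls (adjusted p = 7.2e-05 and 8.6e-05), with means at 18 somites inside the tag control range in both groups. eif4e1c fell by 0.80 ± 0.07 in morphants and 0.53 ± 0.07 in controls, and eif4ea by 0.51 ± 0.06 and 0.50 ± 0.06.

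**Figure D4:**
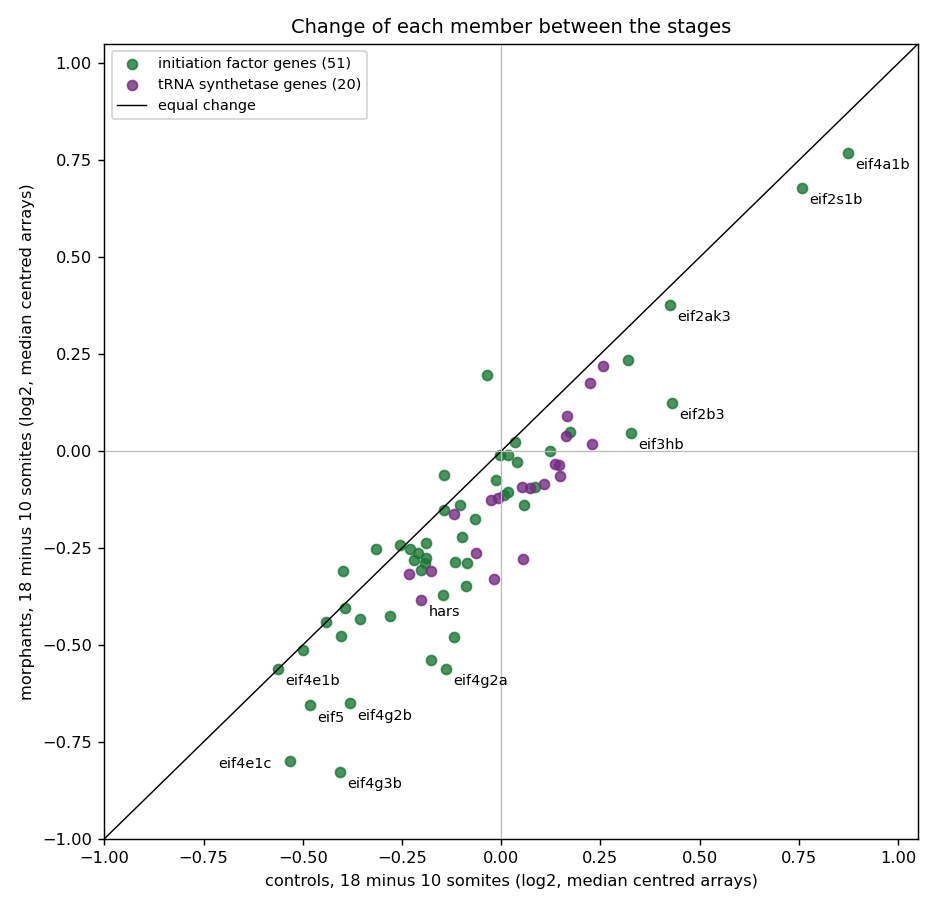
Change from 10 to 18 somites (log2, median centred arrays) in morphants (vertical axis) against controls (horizontal axis), 1 point per member, initiation factors in green and synthetases in purple; the diagonal marks equal change. eif4a1b and eif2s1b stand at the upper right. Points below the diagonal are negative differences between the stage effects with median centring, 65 of 71, beside 59 on the deposited scale.

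Many zebrafish genes exist as a pair of copies since a genome duplication in the fish lineage. Among the initiation factors 8 pairs of symbols differ only in a final a or b, and these pairs were chosen after the values were seen. The difference between copies was taken within each array and tested by exact two-sided permutation of treatment within a stage, or of stage within a treatment, with 400 arrangements and 0.005 as the smallest p they can give, and 16 p-values were adjusted together. These arrangements ignore the replicate numbers, which were taken to pair the samples. Swapping labels only between arrays of the same number leaves 64 arrangements with a smallest p of 0.0312, which 9 of the 16 tests reached, and after adjustment 0 of the 16 passed the threshold (smallest adjusted p = 0.0556) against 13 in the unpaired permutation. Even at the smallest paired p, a test passes the adjustment only if enough of the 16 reach it, and 9 were too few. The paired permutation therefore could not decide whether the copies differed. The adjusted p-values that follow are those of the unpaired permutation, and none of these differences passed the paired one. The pbx effect averaged over both stages was -0.09 for eif2s1a and 0.29 for eif2s1b, a difference of -0.38 (exact permutation p = 0.005, adjusted 0.0114). It was 0.0020 for eif3ha and 0.25 for eif3hb (difference -0.25, same p), and 0.07 for eif4g2a and -0.17 for eif4g2b (difference 0.24, same p), although the second eif4g2a probe set ran the other way. The copies of eif3e (-0.22, adjusted p = 0.02), eif4g3 (0.39, 0.0364) and eif3j (-0.13, 0.0492) also passed in that unpaired exact permutation test. The dimmer eif4g3a probe sets had smaller pbx effects than the one used. The difference was 0.17 for eif4a1 (0.206) and -0.0020 for eif1ax (0.98).

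In the stage change eif4a1a and eif4a1b stood farthest apart. A shift of a whole array cannot alter a difference between copies, but a scaling that varies with signal can. The mean centred change was -0.36 for eif4a1a and 0.82 for eif4a1b, a difference of -1.18 (exact permutation p = 0.005, adjusted 0.0114). The eif2s1 copies differed by -0.76, the eif3j copies by -0.24 and the eif3h copies by -0.23, with the same p. The copies of eif4g3 (0.51, adjusted p = 0.024), eif4g2 (0.17, 0.024) and eif3e (-0.15, 0.0492) also passed in the unpaired exact permutation test, and those of eif1ax had -0.03 (0.757). Under quantile normalization the changes in controls and morphants were 0.13 and 0.11 for eif3ha and 0.31 and 0.05 for eif3hb. They were 0.01 and 0.02 for eif3ea and 0.05 and 0.06 for eif3eb, so the copies of both pairs lay closer together. For eif4a1a they were -0.05 and -0.39, and for eif4a1b 0.99 and 0.91. The second eif4g2a probe set changed by -0.25 and -0.66 after centring, beside -0.38 and -0.65 for eif4g2b. Whether probe sets of a copy also bind the other copy was not tested.

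**Figure D5:**
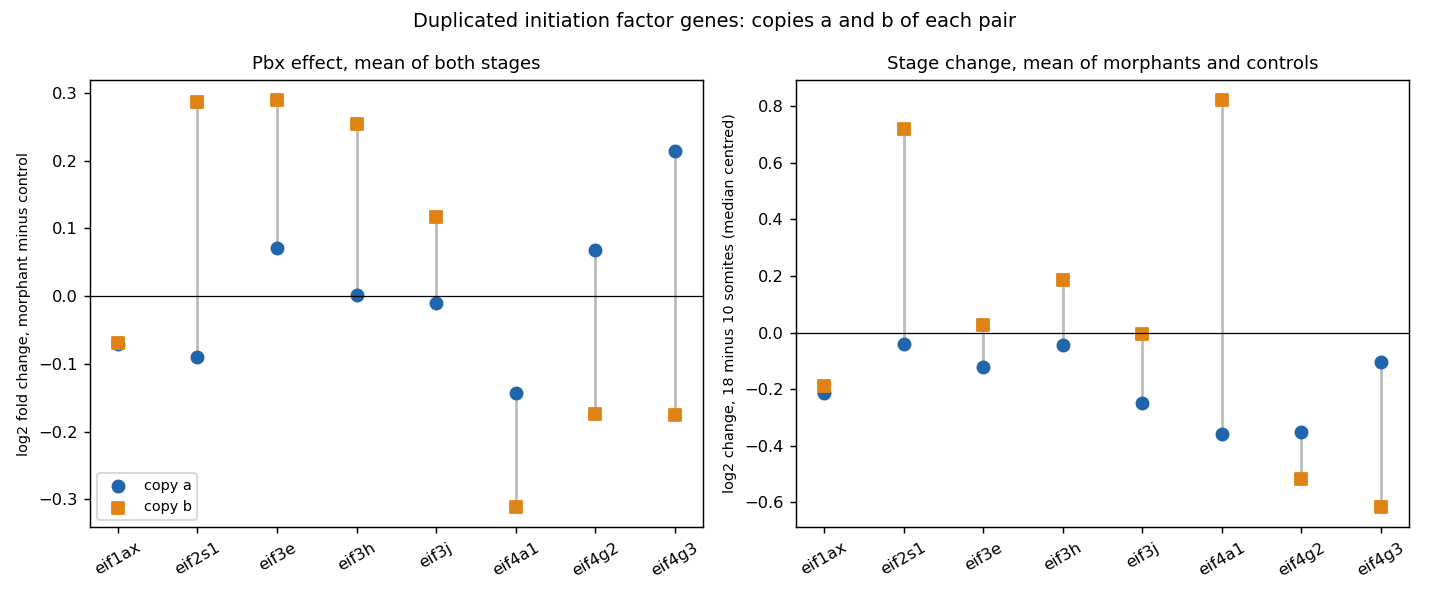
Log2 values of copy a (circles) and copy b (squares) of 8 duplicated initiation factor genes: the pbx effect, morphant minus control, averaged over both stages (left), and the change from 10 to 18 somites, averaged over morphants and controls (right). The grey line is the difference between copies, widest for the stage change of eif4a1 (-1.18).

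Other genes of the translation machinery were read from lists set beside the members. Of 20 measured elongation and release genes, 0 rose and 3 fell at 10 somites, and 1 rose and 4 fell at 18 somites. Of all genes 4.98% rose and 4.53% fell at 10 somites, and 8.28% rose and 6.48% fell at 18 somites. The elongation factor 1 subunit genes eef1b2 and eef1g fell by 0.42 and 0.43 at 10 somites (adjusted p = 0.00119 and 0.00079) and by 0.61 and 0.62 at 18 somites (4.9e-05 and 3.9e-05). The release factor gene gspt1l fell by 0.55 and 0.63 (adjusted p = 0.000103 and 3.2e-05). For eef1g the morphant arrays at 18 somites had 12.14, 12.13 and 12.23 and the control arrays 12.85, 12.77 and 12.74. The eef1g fold change was further from 0 than that of any member on the probe sets used. The second eif4g2a probe set fell by 0.69 at 18 somites. At 18 somites eef2a.1, an elongation factor 2 gene, fell by 0.35 (adjusted p = 0.00829), and eef2k, the kinase that inhibits elongation factor 2, rose by 0.55 (0.00131). Of 73 cytosolic ribosomal protein genes 1 was called at each stage, rps27.1, which fell by 0.47 and 0.33. Of 5 measured synthetase partners and synthetases outside the symbol rule, 0 were called by limma at either stage. An unadjusted p under 0.05 was found for 0 at 10 somites and 2 at 18 somites, beside 24.9% and 29.5% of all genes.

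The amino acid response genes, known from mammals as ATF4 targets or regulators, were mixed. Of 26 measured, 4 rose and 2 fell at 10 somites, against 4.98% and 4.53% of all genes. At 18 somites 3 rose and 5 fell, against 8.28% and 6.48%. atf4a, which encodes an ATF4 protein, had at 10 somites 12.27, 11.96 and 12.21 on the morphant arrays and 10.88, 10.67 and 10.77 on the control arrays. At 18 somites it had 11.18, 10.94 and 11.18 on the morphant arrays and 10.01, 9.88 and 10.16 on the control arrays. atf4a rose by 1.38 ± 0.10 (adjusted p = 2.4e-06) and 1.08 ± 0.10 (2.4e-05), further from 0 than the fold change of any member. The transporter gene slc3a2a rose by 0.30 and 0.65 (adjusted p = 0.0246 and 0.000126), while the serine synthesis genes psat1 (-0.48 and -0.55) and phgdh (-0.37 and -0.29) fell at both stages. shmt2 and cbsb rose by 0.28 each at 10 somites, and at 18 somites cebpb rose by 0.32 while mthfd2 fell by 0.33, slc1a4 by 0.51 and atf4b by 0.30. The asparagine synthetase gene asns had -0.06 and -0.22 and was not called. Of the 20 tRNA synthetases, cars2, a mitochondrial enzyme, was the only 1 called higher at either stage on the probe set used. A second yars1 probe set was also called higher in limma at 10 somites (0.31, adjusted p = 0.0484). Any part of atf4a in the members' changes was not tested.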

How the data were processed

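The authors deposited a log2 signal for each of 15617 probe sets on 12 Affymetrix arrays, made with RMA and the affy package, per the submitters' processing notes. Versions, and which arrays were normalized together, are not given in the sources used here. Tests left out 115 AFFX control probe sets. The platform annotation gave 10795 of the 15502 tested probe sets 1 gene symbol, 135 several and 4572 none, and all 71 member gene IDs matched the RefSeq table of assembly GRCz12tu. Promoter and protein sequences were not analysed here.

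A mean per group was fitted with limma 3.58.1 (lmFit, eBayes) in R 4.3.3 to the 12 arrays together (8 residual degrees of freedom, 6.06 prior), with two-sided tests, and checked on simulated data. Members and lists were chosen with earlier results of these data known. Named members were the called ones, up to 8 a direction and stage, the 3 highest and 3 lowest called control stage changes, a panel of initiation factors and all synthetases. Most other names are marked where they were picked out after their values were seen. Not marked are eif4g3a, eif5, eif3g, eif4bb and eif4enif1, which these rules do not name either. The counts without the 4 arrays numbered 1 and the paired permutation were also chosen after values were seen. Same-numbered arrays come from the labels' numbering. The deviations of morphant and control arrays of a number from their group means correlated between 0.214 and 0.548 within a stage. Arrays of different numbers and groups correlated between -0.427 and 0.231, so the ranges overlapped slightly. The numbers were taken to pair the samples. Alternatives were median centring, quantile normalization, the replicate block, array weights, a filter on dim probe sets that kept 60%, a gene's probe sets averaged, a fit per stage and leaving out each array.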

Additional observations from a re-analysis of the deposited data

How the results depend on the processing

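The counts at 10 somites were fragile. The 5 initiation factor calls were 3 with median centring or with probe sets averaged per gene, 8 with the replicate block (7 higher and 1 lower), 9 with array weights, between 1 and 6 without each array in turn and 0 without the 4 arrays numbered 1. The 1 synthetase call was 4 with array weights, 2 with the filter on dim probe sets or with probe sets averaged per gene, between 0 and 2 without each array and 0 without the arrays numbered 1. At 18 somites the 8 initiation factor calls were 4 in a fit of that stage alone, between 4 and 9 without each array and 1 without the arrays numbered 1, and the 3 synthetase calls were between 1 and 3 and 1. For the stage change, initiation factor calls in morphants were 34, or 22 under quantile normalization and between 29 and 34 without each array. In controls they were 27, or 49 on the deposited scale and between 20 and 28 without each array. Synthetase calls were 6 in morphants, or 20 on the deposited scale and between 5 and 8, and 7 in controls, or 20 on the deposited scale, between 2 and 7 without each array and 2 without the arrays numbered 1. No member was called for the difference between the stage effects under any alternative. The replicate block kept all 6 calls at 10 somites and all 11 at 18 somites. It added 3 at each stage, which the report gives. With labels swapped only within a number 0 of 16 differences between copies passed, but so few arrangements are left that this cannot decide. Of the 17 calls, 4 held without each array in turn: eif4e1c at 10 somites and eif3ba, eif4g3b and gars1 at 18 somites. The second eif4e1c probe set was not called at 10 somites (0.19, adjusted p = 0.0941 in limma). Averaging its probe sets turned eif4g2a at 10 somites to -0.018. On the deposited scale, where the offset between the stages remains, 70 of the 71 control stage changes were negative, beside 44 after median centring. Among the members that the naming rules took, control stage changes turned negative for eif2b3 (-0.34), eif2s1a (-0.71), eif2s1b (-0.0090), eif2ak3 (-0.34), eif3eb (-0.73), eif3hb (-0.44), eif4ebp2 (-0.45), eif5a2 (-0.76), aars1 (-0.71), cars1 (-0.71), farsb (-0.62), gars1 (-0.69), iars1 (-0.54), nars1 (-0.51), rars1 (-0.62), vars1 (-0.63), yars1 (-0.66), cars2 (-0.60), fars2 (-0.54) and rars2 (-0.60). Apart from that offset and the fewer arrays or genes in some fits, the cause was not tested. With 3 arrays a group, changes within the spread of the arrays were not detectable, and signals inside the tag range give only a limited view of eif3hb at 10 somites and eif4e1b at 18 somites.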
